A study of Rattus norvegicus with 3 samples.

Results

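The cluster described here is, in each of 3 single-cell libraries of rat jaw joint tissue, the deposited cluster with the highest level of Fcer2, the gene of the low-affinity IgE receptor CD23. It was chosen by this measured value alone, 1 cluster of 15 in the sham library, 1 of 18 in the UAC library and 1 of 19 in the UAC + miR-330 library, so 3 of 52 clusters in all. The working name of the cluster is the mature B cell cluster, with Fcer2, Cr2, Ms4a1 and Cd22 as its markers. Because the choice used these cells, the levels of these genes are given as a description and support nothing.

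B cells form in the bone marrow from precursors that rearrange their antibody genes with Rag1 and Rag2 and carry a surrogate light chain made of Vpreb1 and Igll1. Newly formed B cells then gain CD20 (Ms4a1), the BAFF receptor (Tnfrsf13c) and class II molecules, and in the rat they still carry Thy-1 (Thy1) and CD24 on their surface. Mature follicular B cells lose Thy-1, carry CD23 and the complement receptor CD21 (Cr2), and recirculate through lymphoid tissue and marrow with the help of CXCR5 and CCR7. The subchondral bone of the condyle encloses marrow, so such cells can enter a tissue digest.

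The study placed Sprague-Dawley rats under unilateral anterior crossbite (UAC), a dental appliance that overloads the temporomandibular joint, and injected an adeno-associated virus (AAV) into the joint. The sham group received vector AAV without UAC, the UAC group received vector AAV with UAC, and the UAC + miR-330 group received an AAV carrying miR-330 with UAC, each kept for 8 weeks. All animals were wild type, their age was not given in the sources used here, and the 16 condyles of the 8 rats of a group were pooled into 1 library, so there is 1 library per condition, no spread between animals and no test of any difference. The labels name the cells as chondrocytes and osteoclasts, while the clusters described here carried B-cell genes and held skeletal genes at low level, given below. The libraries held 77668015, 92629658 and 97255383 unique molecular identifiers (UMIs, single captured RNA molecules). Levels are UMIs per 1000000 UMIs of the cluster or library (CPM), and brackets give exact Poisson 95% intervals, which cover counting error only. The sequence of the delivered miRNA frames the comparison of UAC + miR-330 with UAC. Both of its mature arms are therefore shown as RefSeq lists them for the rat build GRCr8, with the seed in capitals. They lie on chr1:87961227-87961248 and chr1:87961266-87961288, plus strand. Which arm acted in the joint was not analysed here.
rno-miR-330-5p: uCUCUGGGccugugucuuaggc
rno-miR-330-3p: gCAAAGCAcagggccugcagaga

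Fcer2 selected cluster 1 of the sham library with 55 UMIs, 8.81 CPM (6.63 to 11.5). It selected cluster 14 of the UAC library with 217 UMIs, 93.4 CPM (81.4 to 107), and UAC + miR-330 cluster 8 with 226 UMIs, 73.1 CPM (63.8 to 83.2). By Cr2 the highest sham cluster was another, cluster 11 at 61.3 CPM. The clusters just outside the rule were sham cluster 11 at 2.90 CPM, UAC cluster 2 at 10.8 CPM and UAC + miR-330 cluster 2 at 9.15 CPM. The level that put sham cluster 1 first thus lay within the counting error of the clusters that came next in the other libraries. The selected clusters held 74.3%, 68.0% and 69.5% of the Fcer2 UMIs of their libraries.

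The sham cluster was more like other clusters of the UAC libraries than like those selected there. Over 11409 genes whose UMIs reached 500 over all libraries, the centred log2 profile of sham cluster 1 had a Pearson correlation of 0.765 with UAC cluster 2 and 0.523 with UAC cluster 14, and of 0.762 with UAC + miR-330 cluster 2 and 0.549 with UAC + miR-330 cluster 8. UAC cluster 14 and UAC + miR-330 cluster 8 were most like each other, at 0.835, and the clusters numbered 2 likewise, at 0.875. These correlations are over genes, which are not independent, and describe the match only. Cd24 was at 705 CPM in sham cluster 1, at 721 and 544 CPM in both clusters numbered 2, and at 78.3 and 66.3 CPM in clusters 14 and 8. Thy1 was at 310, 288 and 308 CPM against 11.2 and 7.76 CPM in the same order. Gpr183 was at 6.24, 5.03 and 7.78 CPM against 352 and 269 CPM. Sham cluster 1 is therefore called by its number below. UAC cluster 14 and UAC + miR-330 cluster 8 are called the mature B-like cluster as a working name. Fcer2 was highest there by the rule and so is no support for the name. Cr2 and Cd22 were also highest there, with an overlap for Cr2 given below. All 3 selected clusters carried the 4 markers, and Fcer2 chose them. Of 14 pan-B markers compared with cluster 2 of the same library, 0 were higher by 2-fold or more with intervals apart, beside 8.41% and 8.85% of all genes, and 8 and 9 lower, beside 8.93% and 9.32%. They had sums of 7297 and 8852 CPM in clusters 14 and 8 beside 10435 and 12954 CPM in the whole libraries, Ebf1 being the most abundant. The name mature B-like therefore rests on few genes. The sham cluster most like cluster 14 and cluster 8 was cluster 1 itself, at 0.523 and 0.549, so no closer counterpart was found, and values for the sham library are given for cluster 1 and for the whole library. Among genes that led clusters 14 and 8, sham cluster 1 held 73.7% of the sham UMIs of Cxcr5 and 69.4% of those of Fcrl5. It held 18.0% of those of Siglech and 6.25% of those of Hs3st3a1. Whether sham cluster 1 joined cells of both kinds was not tested.

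Sham cluster 1 also held RNA of other lymphocytes. Of the T-cell gene Cd3e, 36.6% of the sham library's UMIs lay in it, at 14.9 CPM, and of the chemokine gene Ccl5 79.8%, at 178 CPM. The granzyme gene Gzmk had 59.5% of its UMIs there, at 12.5 CPM. In the UAC library 91.2% of the Cd3e UMIs and 96.6% of the Ccl5 UMIs lay in cluster 17, while cluster 19 of UAC + miR-330 held 87.6% of the Cd3e UMIs and 1918 CPM of Ccl5. The sham library had no such cluster, its highest Cd3e level being 22.2 CPM in cluster 11. These genes were named after their values were seen.

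**Figure D1:**
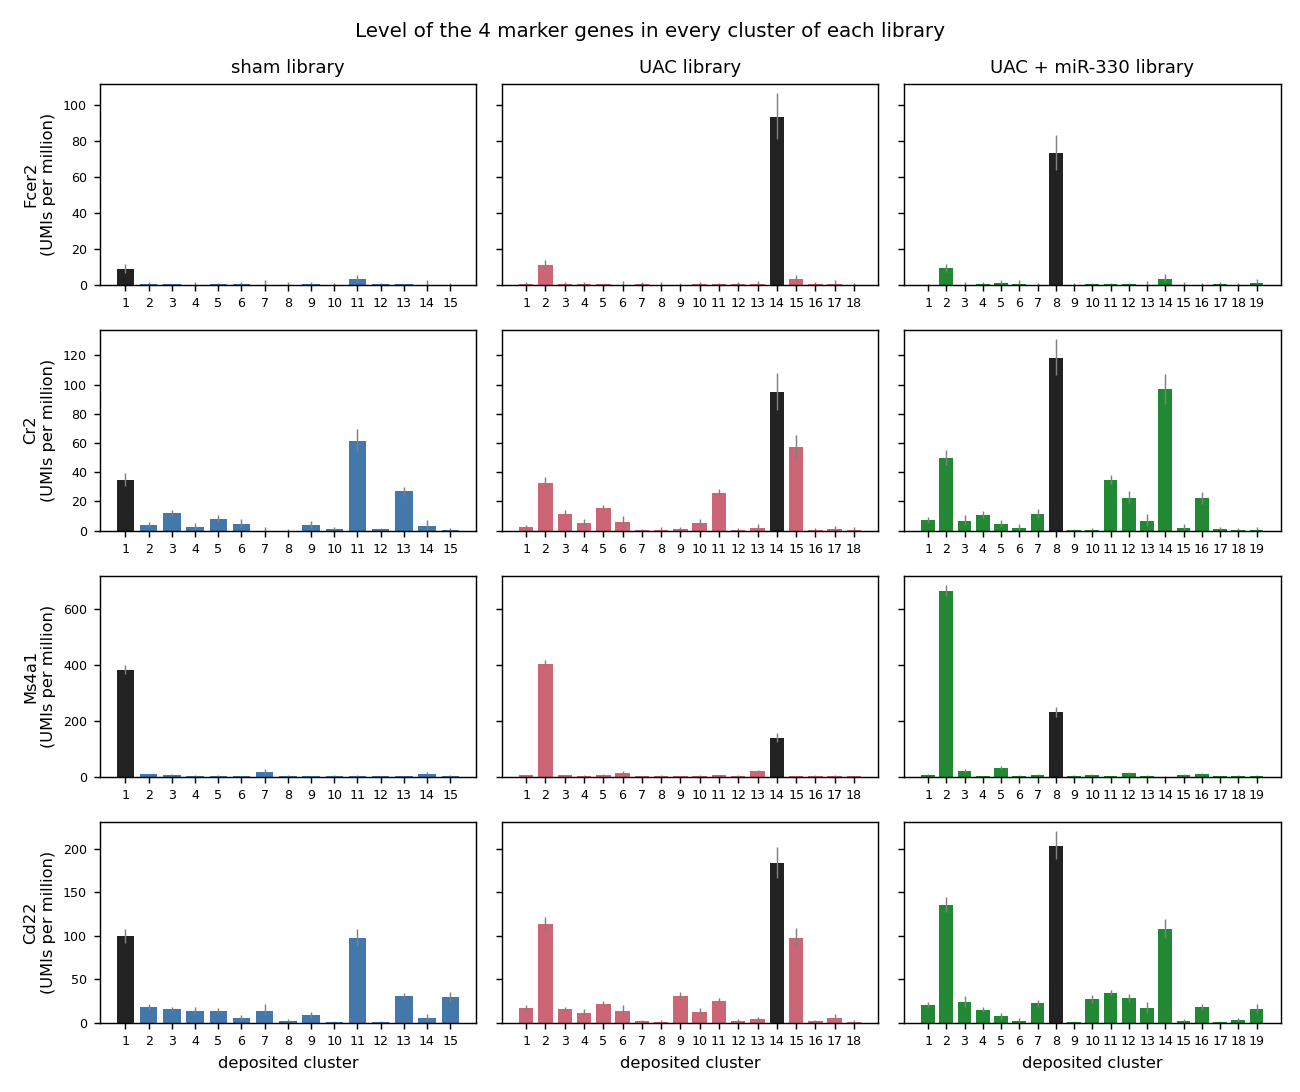
Bars give the level of Fcer2, Cr2, Ms4a1 and Cd22 in CPM (linear axis from 0) in every deposited cluster of each library, with exact Poisson 95% intervals as thin lines and the cluster highest in Fcer2 in black. Fcer2 stood at 93.4 and 73.1 CPM in UAC cluster 14 and UAC + miR-330 cluster 8 and at 8.81 CPM in sham cluster 1, while Ms4a1 was highest in sham cluster 1 and in the clusters numbered 2.

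Cr2, the receptor for complement C3d that lowers the threshold of the B-cell receptor, was at 94.7 CPM (82.6 to 108) in UAC cluster 14 and 118 CPM (106 to 131) in UAC + miR-330 cluster 8, against 34.7 CPM (30.3 to 39.7) in sham cluster 1. Cd22, an inhibitory sialic-acid-binding receptor, was at 184 and 203 CPM against 99.4 CPM. Ms4a1, which encodes CD20, went the other way, with 140 CPM (125 to 156) and 232 CPM (215 to 250) against 383 CPM (368 to 399). Of the 4 genes, Fcer2, Cr2 and Cd22 were highest of all clusters in the mature B-like cluster of both UAC libraries. For Fcer2 the rule fixed this, and Ms4a1 was second to cluster 2. Cr2 came next in the clusters highest in Vpreb1 and Rag1, UAC cluster 15 at 57.0 CPM and UAC + miR-330 cluster 14 at 96.8 CPM (86.9 to 107.5). The latter interval overlaps that of cluster 8, so Cr2 did not set these 2 clusters apart. Sham cluster 11, highest in Cr2, was likewise highest in Vpreb1.

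To place the cluster within the B lineage, it was compared with cluster 2 of its own library, the cluster with the largest sum of the 4 markers. A gene counts as higher or lower here when the log2 ratio after adding 0.5 UMI is at least 1 in size and the Poisson intervals do not overlap, among genes that reach 50 UMIs over the 2 clusters. In the UAC library 715 of 8506 genes (8.41%) were higher and 760 (8.93%) lower in cluster 14. In the UAC + miR-330 library 784 of 8858 (8.85%) were higher and 826 (9.32%) lower in cluster 8. Of the higher genes, 517 were so in both libraries, which is 72.3% of the UAC list and 65.9% of the UAC + miR-330 list, and of the lower genes 546, which is 71.8% and 66.1%. The cells were clustered on these genes, so the counts are a description.

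Homing and adhesion genes had calls in the higher direction only. Of the 20 listed genes, 19 were compared in each library. Of these, 11 were higher in the UAC cluster and 12 in the UAC + miR-330 cluster, beside 8.41% and 8.85% of all genes. In both libraries 0 were lower, beside 8.93% and 9.32%. The median log2 ratios were 1.84 and 1.31 beside −0.08 and −0.04 for all genes. Cxcr5, the receptor that draws B cells into follicles, was at 174 CPM in UAC cluster 14 against 15.5 CPM in cluster 2, and in UAC + miR-330 at 273 CPM in cluster 8 against 14.6 CPM in cluster 2. Gpr183, the oxysterol receptor that positions B cells at the follicle edge, was at 352 CPM against 5.03 CPM and at 269 CPM against 7.78 CPM. Ccr6, a receptor for CCL20 gained late in B-cell maturation, was at 121 against 30.3 CPM and at 160 against 26.6 CPM. Cxcr4, which retains cells in marrow, was at 571 against 315 CPM and at 565 against 306 CPM, and in neither library reached a log2 ratio of 1.

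Class II antigen presentation genes were called higher in 6 of 10 compared in each library, beside 8.41% and 8.85% of all genes, and 0 were lower. Cd74, the invariant chain that guards the class II groove, was at 11489 CPM in UAC cluster 14 and 8976 CPM in UAC + miR-330 cluster 8. RT1-Da, an alpha chain of the rat class II molecule of the DR type, was at 5234 and 3953 CPM against 1298 and 972 CPM in the clusters numbered 2, and RT1-Ba, the alpha chain of the DQ type, at 3548 and 3005 CPM against 675 and 513 CPM. RT1-DOa, an alpha chain of the class II modulator that B cells use to tune peptide loading, was at 171 and 108 CPM against 15.5 and 11.2 CPM. The genes higher in both libraries were RT1-Ba, RT1-Bb, RT1-Da, RT1-Db1, RT1-DOa and RT1-DOb, and the list of 12 had median log2 ratios of 1.75 and 1.87 over the genes compared, beside −0.08 and −0.04 for all genes. Ciita, the coactivator that switches these genes on, was at 88.2 and 106 CPM against 46.2 and 62.4 CPM.

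Class II promoters are known to share a Y box, which the factor NF-Y binds beside the sites of RFX. Its core, CTGATTGG, was searched on both strands in the 300 bases around the start of each gene (250 before it and 50 after), from RefSeq, build GRCr8. Of the 12 class II genes 10 had a promoter in the table, and 5 held the core, RT1-Ba, RT1-Bb, RT1-Da, RT1-Db1 and RT1-DOa, each on the gene's own strand. Of all 33469 promoters of this length 3.50% held it. The first base of the core lay 46 bases before the start in RT1-Ba, 52 in RT1-Da, 64 in RT1-Bb, 83 in RT1-Db1 and 110 in RT1-DOa. The octamer ATGCAAAT, bound by the factor that Pou2f2 encodes, was in 0 of these 10 promoters and in 1.78% of all, and of the 12 homing genes with a promoter Ccr6 alone held it. A match describes the letters and not binding. The promoters of RT1-Ba at chr20:4576807-4577106 and RT1-Da at chr20:4515165-4515464, both on the plus strand, and of RT1-DOa at chr20:4758374-4758673 on the minus strand, are printed with the core in capitals, as those of 2 abundant classical chains and of the modulator.
RT1-Ba: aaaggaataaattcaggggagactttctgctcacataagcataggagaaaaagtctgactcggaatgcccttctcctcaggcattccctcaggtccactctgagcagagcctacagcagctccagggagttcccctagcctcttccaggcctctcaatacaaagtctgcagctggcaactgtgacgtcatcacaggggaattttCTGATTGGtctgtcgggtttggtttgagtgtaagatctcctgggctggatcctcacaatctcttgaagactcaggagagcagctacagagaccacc
RT1-Da: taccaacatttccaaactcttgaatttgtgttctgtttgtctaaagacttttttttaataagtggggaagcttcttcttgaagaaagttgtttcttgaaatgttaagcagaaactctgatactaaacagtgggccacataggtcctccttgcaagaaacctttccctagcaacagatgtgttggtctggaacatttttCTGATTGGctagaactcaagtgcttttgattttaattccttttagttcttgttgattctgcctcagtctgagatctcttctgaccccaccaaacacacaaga
RT1-DOa: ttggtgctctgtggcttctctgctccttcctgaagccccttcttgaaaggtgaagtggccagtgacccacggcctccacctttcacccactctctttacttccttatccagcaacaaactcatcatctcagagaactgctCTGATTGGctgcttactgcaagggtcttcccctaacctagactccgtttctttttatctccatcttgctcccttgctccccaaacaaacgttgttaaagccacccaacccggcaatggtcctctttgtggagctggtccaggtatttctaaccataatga

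Genes of the B-cell receptor and its signalling went in both directions. Cd79b, a signalling chain of the B-cell receptor, was at 531 and 441 CPM in the mature B-like cluster against 1403 and 1306 CPM in the clusters numbered 2. Lyn, the kinase that starts and restrains the signal, was at 1465 and 1987 CPM against 2440 and 3356 CPM. Of the 23 genes compared in that list, 1 was higher in each library, Nfatc1, a transcription factor downstream of calcium, beside 8.41% and 8.85% of all genes. Lower were 5 and 6, beside 8.93% and 9.32%, and the median log2 ratios were −0.36 and −0.44 beside −0.08 and −0.04. Bank1, a B-cell scaffold for that signal, was at 1468 and 2392 CPM in the cluster against 794 and 1243 CPM. Of the surface receptors, Cd72 was at 117 and 138 CPM against 758 and 782 CPM, and Cd38, an ectoenzyme that rodent follicular B cells keep, was at 113 and 203 CPM against 16.6 and 17.2 CPM.

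Of 24 transcription factors compared, 3 and 2 were higher, beside 8.41% and 8.85% of all genes, and 8 and 8 lower, beside 8.93% and 9.32%. Ebf1, which commits cells to the B lineage, was at 2217 and 2776 CPM against 9899 and 12124 CPM. Spib and Pou2f2 were also lower in both libraries, Pou2f2 at 110 and 144 CPM against 689 and 701 CPM. Pax5, which keeps B-cell identity, was at 566 and 769 CPM against 686 and 939 CPM. Irf8 was higher in both, at 476 and 357 CPM against 130 and 118 CPM.

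Of 14 survival genes compared, 2 were higher and 2 lower in each library, beside those shares of all genes. Tnfrsf13c, which encodes the BAFF receptor, was at 154 and 132 CPM in the mature B-like cluster against 1017 and 855 CPM in the clusters numbered 2. Bcl2, the survival factor of resting lymphocytes, was at 304 and 370 CPM against 64.8 and 70.3 CPM, while Bcl2l1, which encodes the related BCL-XL of precursors, was at 9.04 and 8.73 CPM against 135 and 146 CPM. Early B-cell markers summed to 414 and 295 CPM beside 1392 and 1551 CPM for the whole libraries, led by Flt3 at 246 and 160 CPM, the highest level of this gene in any cluster of each library. Of that list Rag1 was at 0.861 and 1.62 CPM, and Vpreb3 at 41.3 and 58.8 CPM against 271 and 274 CPM. Cycling markers were low, with a sum of 19 genes of 613 and 514 CPM beside 4524 and 4634 CPM for the whole libraries. They summed to 619 and 535 CPM in the clusters numbered 2, so this was not particular to the cluster.

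Of 28 immediate early genes compared, 14 were higher in each library, not all of them the same genes, beside 8.41% and 8.85% of all genes. Lower were 3 and 2, beside 8.93% and 9.32%, and the median log2 ratios were 1.04 and 0.96 beside −0.08 and −0.04. Those lower were Ier3 and Dusp2 in both libraries and Nfkbid in UAC. Fos was at 559 and 599 CPM against 149 and 196 CPM, Myc at 158 and 104 CPM against 10.95 and 15.6 CPM, and the chemokine gene Ccl3 at 383 and 398 CPM against 14.9 and 13.9 CPM. Tissue digestion can raise such genes, and the part of handling was not tested. Interferon-stimulated genes gave 1 and 3 higher and 4 and 5 lower of 20 and 21 compared, and the heat shock list 0 and 1 higher of 8 and 9, beside the same shares.

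**Figure D2:**
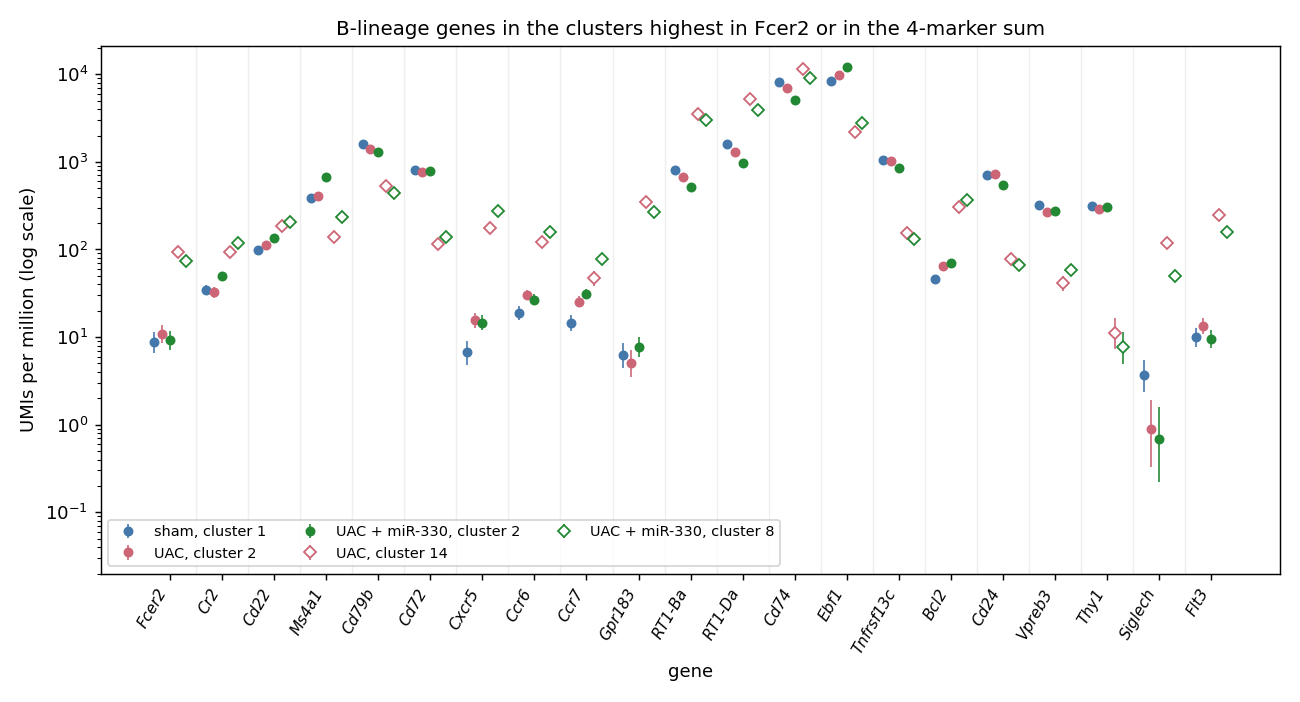
Points give CPM on a log axis for 21 genes in sham cluster 1 and the clusters numbered 2 (filled circles) and in UAC cluster 14 and UAC + miR-330 cluster 8 (open diamonds), with exact Poisson 95% intervals, several of them smaller than the points. Sham cluster 1 lies with the clusters numbered 2 for Cd24, Vpreb3, Thy1, Tnfrsf13c and Ebf1, and the open diamonds stand apart from all 3 for Cxcr5, Gpr183, Bcl2 and Siglech.

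Genes were ranked that had at least 100 UMIs in all 3 selected clusters and lay at least 2-fold above certain other clusters. These were the clusters of the same library highest in Vpreb1, in Rag1 and, among B-lineage clusters, in Mki67. Cluster 2 of each UAC library was not among them. In both UAC libraries 1 cluster was highest in Vpreb1 and in Rag1. Class II genes led by the smallest of the 3 ratios, RT1-Bb at 53.0-fold in sham, 169-fold in UAC and 166-fold in UAC + miR-330, followed by RT1-Ba and RT1-Da. Next came Ccr6 at 26.1, 126 and 165-fold and Sh2b2, an adaptor of receptor kinases, at 23.9, 49.4 and 63.7-fold. Fcmr, the IgM receptor gene, was at 869, 762 and 732 CPM in the 3 selected clusters. It was at 708 and 649 CPM in cluster 2 of UAC and of UAC + miR-330, so it was not particular to the selected clusters. The choice of the ranked genes sets their place above the clusters highest in Vpreb1, Rag1 or Mki67, so they are a description.

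Markers of other cells were also present in the mature B-like cluster. Of 11 dendritic-cell markers, 8 were detected in UAC cluster 14 with a summed level of 1644 CPM (1592 to 1697), and 9 in UAC + miR-330 cluster 8 with 1079 CPM (1043 to 1117), against 376 CPM (361 to 391) in sham cluster 1. The most abundant was Tcf4, at 1087 and 761 CPM, which is not particular to dendritic cells and was at 1202 CPM in UAC cluster 15 and 1581 CPM in UAC + miR-330 cluster 14. Xcr1 and Batf3 were at 0 in both. Siglech, a receptor of plasmacytoid dendritic cells, was at 118 CPM (104 to 133) and 50.4 CPM (42.8 to 59.0), and 69.5% and 47.1% of its library UMIs lay in the cluster. It was among the 10 leading genes of UAC cluster 14 by ratio to the rest of the library, as were Fcer2 and Kdr, an endothelial marker, at 36.1 CPM and 27.8 CPM in cluster 8. Of the 4 endothelial markers listed, Emcn and Vwf were at 0 in both clusters. Against cluster 2 of the same library, all 4 dendritic-cell markers compared were higher, beside 8.41% and 8.85% of all genes. They were Flt3, Siglech, Tcf4 and Cst3, with median log2 ratios of 2.98 and 2.86 beside −0.08 and −0.04. How much of the cluster these cells made up was not tested.

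Of 15 T-cell markers, 14 were detected in UAC cluster 14 with a sum of 123 CPM (109 to 138) and 10 in UAC + miR-330 cluster 8 with 56.9 CPM (48.8 to 65.9), led by Cd3g at 34.0 and 18.7 CPM, and Bcl11b was at 0 in both. Sham cluster 1 had 464 CPM, of which Thy1 gave 310 CPM. NK-cell markers summed to 46.9 and 28.4 CPM, led by Klrb1a, with Gzma, Gzmb and Ncr1 at 0 in both. Neutrophil markers summed to 1511 and 1236 CPM, led by S100a9 at 544 and 547 CPM, beside 64031 and 45099 CPM in the whole libraries, with Ltf at 0 in both. Monocyte and macrophage markers summed to 112 and 149 CPM, led by Lyz2, with Lyz2 at 2785 and 3179 CPM in the libraries. Skeletal markers summed to 148 and 125 CPM, led by Col1a1, beside 6014 and 5959 CPM. Erythroid markers summed to 85.6 and 104 CPM, led by Hba-a1, megakaryocyte markers to 11.6 and 6.14 CPM, and mast-cell and basophil markers to 3.44 and 1.94 CPM.

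Markers of other B-cell states were also measured in the mature B-like cluster. Plasma-cell markers summed to 497 and 485 CPM, led by Irf4 at 128 and 143 CPM, which B cells also express, and the listed immunoglobulin genes with Jchain took 0.661% and 0.375% of the UMIs. Germinal-centre and memory markers summed to 82.6 and 83.7 CPM, led by Bcl6 at 47.3 and 48.5 CPM. Marginal-zone markers summed to 290.0 and 318 CPM, led by Cr2, a marker of the cluster by choice.

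UAC + miR-330 against UAC asks what the miR-330 AAV changed in the overloaded joint, and here it compares cluster 8 with cluster 14, which matched each other. Of 7690 genes compared, 146 were higher (1.90%) and 112 lower (1.46%), with a median log2 ratio of 0.09. The balance depends on scaling. Centred on that median the counts were 98 higher and 151 lower, and on the deposited mean counts, which sum to a larger total in the UAC + miR-330 library, 443 higher and 52 lower. Fcer2 had a log2 ratio of −0.35 (−0.63 to −0.08), Cr2 of 0.32 (0.08 to 0.57) and Cd22 of 0.15 (−0.03 to 0.33), so the ratio intervals of Fcer2 and Cr2 leave out 0, while for all 3 genes the intervals of the 2 levels overlap.

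B-cell receptors and signalling genes gave 0 calls in this comparison, of 28 and 23 compared. With intervals apart, whatever the size, 18.7% of all genes were higher and 10.1% lower. Of the receptors 5 were higher and 2 lower, Cd79b and Cd37, and of the signalling genes 13 were higher and 1 lower, again Cd79b. The signalling genes leaned likewise between the clusters numbered 2, with 14 higher and 3 lower beside 21.9% and 12.2% of all genes, and over the whole libraries, with 18 and 3 beside 41.6% and 18.9%, so this was not particular to the selected cluster. Cd79b had a log2 ratio of −0.27 (−0.38 to −0.16) and Cd37 of −0.23 (−0.35 to −0.10), which on the deposited mean counts was 0.01, while Ms4a1 had a log2 ratio of 0.73 (0.54 to 0.92), Bank1 of 0.70 (0.65 to 0.76), Cd38 of 0.84 (0.64 to 1.06) and Cxcr5 of 0.65 (0.48 to 0.83). Over the whole libraries, which include the cluster, the log2 ratios of Ms4a1 and Bank1 were 0.75 and 0.83. Outside the cluster Cxcr5 was at 1.96 CPM in UAC and 1.79 CPM in UAC + miR-330, so it was not higher there. Homing genes gave 0 higher and 1 lower of 19, beside 1.90% and 1.46% of all genes. The gene lower was Rgs1, a brake on chemokine receptor signals, at 224 CPM in UAC and 65.0 CPM in UAC + miR-330, while Itga4, the alpha-4 integrin gene, was at 368 and 678 CPM, a log2 ratio of 0.88. Class II genes gave 0 calls of 10, 6 of them lower with intervals apart, with a median of −0.30, and Cd74 was at 11489 and 8976 CPM. Between the clusters numbered 2 of the same libraries 5 of 10 were lower with intervals apart, with a median of −0.34, so the shift was not particular to the selected cluster.

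Of 11 dendritic-cell markers 5 were compared, 1 was called lower and 0 higher, beside 1.46% and 1.90% of all genes. With intervals apart 4 were lower, beside 10.1%, and the median log2 ratio was −0.62 beside 0.09. The gene called was Siglech, with a log2 ratio of −1.22 (−1.52 to −0.94), while those of Cst3, Flt3 and Tcf4 were −0.84, −0.62 and −0.52. Outside that list, the chemerin receptor gene Cmklr1, which plasmacytoid dendritic cells carry, was at 21.5 and 5.17 CPM. Bst2, an antiviral membrane protein abundant on the same cells, was at 315 and 145 CPM, a log2 ratio of −1.12. The summed T-cell markers were lower as well, as given above, with Cd2 at 16.8 and 6.46 CPM. The part of these cells in the other lower calls was not tested. On the deposited mean counts Siglech, Bst2, Hsph1, Bcl2a1 and Atf3 kept their direction with a log2 ratio under 1 in size, while Cd38 and Itga4 passed 1, at 1.08 and 1.12.

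Of 13 interferon-stimulated genes compared, Ifit2 and Ifi44l were higher and Oasl and Bst2 lower, beside 1.90% and 1.46% of all genes. With intervals apart 6 were higher and 2 lower, beside 18.7% and 10.1%, and the median log2 ratio was 0.29 beside 0.09. Between the clusters numbered 2, of 21 compared 6 were likewise higher and 2 lower, beside 21.9% and 12.2% of all genes. Their median log2 ratio was 0.38. Over the whole libraries 12 were higher and 6 lower of 22, beside 41.6% and 18.9%. Ifit2, which binds viral RNA, was at 6.02 CPM in UAC and 53.3 CPM in UAC + miR-330, a log2 ratio of 3.10 (2.36 to 4.05), beside 0.87 over the whole libraries. Of 9 heat shock genes compared, Hsph1 was lower, at 288 and 130 CPM, beside 1.46% of all genes, and 7 were lower with intervals apart, beside 10.1%, among them Hspa8 at 945 and 704 CPM, with a median log2 ratio of −0.45. Between the clusters numbered 2, of 8 compared 3 were higher and 1 lower with intervals apart, beside 21.9% and 12.2% of all genes. Their median log2 ratio was 0.04. Egr3, an immediate early factor, was at 18.5 and 46.9 CPM, and was higher also in cluster 2 of UAC + miR-330 against cluster 2 of UAC, at 10.5 against 4.88 CPM, and over the whole libraries, at 3.41 against 1.44 CPM. Atf3, a stress factor, was at 21.1 and 10.0 CPM. Bcl2a1, a survival gene that is high in neutrophils, was at 86.9 and 42.7 CPM, and at 153 and 74.99 CPM in the whole libraries.

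By size of change the highest ratio was that of Tox, a nuclear factor of T cells and other lymphocytes, from 3 to 65 UMIs, a log2 ratio of 3.81 (2.41 to 6.34). Ifit2, the unnamed genes AABR07015057.1 and AABR07000398.1, Gucy1a2, Mical2, Nsun3, Kcnn3, Brca1 and Tmlhe followed, with log2 ratios from 3.10 to 1.81. AABR07000398.1 was at 145 and 736 CPM in the cluster and at 108 and 551 CPM in the whole libraries. The lowest ratio was that of LOC108348108, at 124 and 9.05 CPM, −3.76 on the log2 scale, and it was at 63.4 and 23.2 CPM over the libraries. Wls, RGD1309104, Gcnt2, Jdp2, Nrgn, Rbpms, LOC100361087, Ifitm1 and Cmklr1 followed, from −3.05 to −2.03. Wls, Jdp2, Ifitm1 and Brca1 lay under 50% of the whole-library level in both clusters.

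UAC against sham asks what the overload changed, and the selected clusters do not answer it. Between UAC cluster 14 and sham cluster 1, 786 of 8465 genes were higher (9.29%) and 776 lower (9.17%). Since sham cluster 1 was more like UAC cluster 2, nothing is read from these counts. On the deposited mean counts they were 1030 and 569. The genes highest by ratio included Rassf4, Setbp1, NEWGENE_1310139, Ackr3, Hs3st3a1, Gpr183, Ephb2, LOC108348108 and Rap1gap2, and those lowest were Nxph4, Ccl5, Trim2, Nid2, AABR07036411.1, Zfp618, AABR07051556.1, AABR07012039.1, Dlk1 and Ispd. Trim2, at 535 CPM in sham cluster 1 and 5.16 CPM in UAC cluster 14, was at 640 CPM in UAC cluster 2.

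The matched clusters had few calls. Between UAC cluster 2 and sham cluster 1, which the sum of the 4 markers selected, 48 of 8943 genes were higher (0.537%) and 74 lower (0.827%). The 10 lowest by ratio were Tox, Ccl5, Camk4, Gzmk, AC109737.1, Ccl4, Ctsw, Ikzf2, Rora and Cd7. The 10 highest included the neutrophil-rich genes G0s2, Cxcl2, Il1b and Lrg1, which lay under 50% of the whole-library level in both clusters, and neutrophil markers summed to 1019 CPM in sham cluster 1 and 2342 CPM in UAC cluster 2. Of the markers compared, 6 of 7 T-cell genes, 2 of 3 NK-cell genes and 6 of 8 skeletal genes were lower, and 5 of 8 neutrophil genes were higher. T-cell markers summed to 464 and 326 CPM in sham cluster 1 and UAC cluster 2, led by Thy1, NK-cell markers to 51.7 and 16.7 CPM, and skeletal markers to 378 and 193 CPM, led by Col1a1. The part of T cells, NK cells, neutrophils and skeletal cells in these calls was not tested. Of 8 heat shock genes compared, Hsp90aa1 and Hsph1 were higher and 0 lower, with a median log2 ratio of 0.42 beside 0.02. Of 28 immediate early genes compared, 0 were higher and 3 lower, Nr4a2, Ccl3 and Ccl4. Within the UAC library these 3 genes were called higher in cluster 14 than in cluster 2. Ccl4 was at 152 CPM in sham cluster 1, 4.74 CPM in UAC cluster 2 and 171 CPM in UAC cluster 14. The shares of all genes are those given above, and the parts of handling and of the cells each cluster held were not tested. Cxcr5 was higher, at 15.5 against 6.73 CPM, and Fcer2, Cr2, Ms4a1 and Cd22 had log2 ratios of 0.29, −0.10, 0.07 and 0.19, with overlapping intervals of the levels, while the ratio interval of Cd22 (0.03 to 0.34) leaves out 0. Between UAC + miR-330 cluster 2 and UAC cluster 2, 148 of 9094 genes were higher (1.63%) and 68 lower (0.748%).

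The share of library UMIs in the selected cluster was 8.04% in sham, 2.51% in UAC and 3.18% in UAC + miR-330, with exact binomial 95% intervals no wider than 8.03 to 8.05%. The sham value counts a cluster that was more like the clusters numbered 2 and gives no direction. Cluster 14 and cluster 2 together held 9.80% in UAC, and cluster 8 and cluster 2 together 10.7% in UAC + miR-330. A share of UMIs is not a share of cells, since RNA per cell differs between cell types.

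Whole-library levels do not rest on how each library was clustered. Fcer2 was at 0.953 CPM in sham, 3.44 CPM in UAC and 3.34 CPM in UAC + miR-330, and Cxcr5 at 0.734, 6.27 and 10.4 CPM. Ccr6 was at 2.15, 6.21 and 8.70 CPM, and Gpr183 at 6.36, 29.8 and 25.8 CPM. Fcer2 chose the clusters, and Cxcr5, Ccr6 and Gpr183 are named for their high levels in the clusters chosen in the UAC libraries, so lower levels in sham are favoured by the choice and these values are a description. Of the other markers of the rule, Cd22 was at 24.9, 29.0 and 36.6 CPM, with a log2 ratio of 0.22 (0.14 to 0.31) between UAC and sham. Ms4a1, at 34.8, 37.3 and 62.8 CPM, and Cr2, at 13.2, 14.3 and 21.9 CPM, had ratios of 0.10 (0.03 to 0.17) and 0.12 (−0.00 to 0.23), and the intervals of their levels in UAC and sham overlap. Fewer cells of a type and less RNA per cell cannot be told apart at this level.

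In both UAC libraries, 14 genes had at least 100 UMIs in the mature B-like cluster and a level at least 4-fold above every other cluster. They were Camk2a, Cxcr5, Fcer2, Fcrl5, Hs3st3a1, Kmo, LOC102550441, Lax1, RT1-DOa, RT1-DOb, Sh3gl2, Siglech, Snx9 and Trpm6. They were selected on the UAC libraries and include Fcer2, so a lower level in sham is favoured by the choice, and their whole-library levels are a description that supports nothing. Lax1, an adaptor that dampens antigen-receptor signals, was at 4.39, 31.2 and 44.2 CPM, and Fcrl5, an IgG-binding receptor of B cells, at 0.927, 3.84 and 5.37 CPM. The rule for this set was chosen after the values were seen.

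Markers of T cells and other cells also differed over the whole libraries. Of 15 T-cell markers compared, 9 were higher and 0 lower in UAC than in sham, where 2.30% of all 14235 genes were higher and 1.88% lower, with a median log2 ratio of 1.32 beside −0.02. In UAC + miR-330 against sham 10 were higher and 0 lower, where 5.53% of 14376 genes were higher and 2.45% lower, with a median of 1.45 beside 0.14. Their sums were 266 CPM in sham, 312 CPM in UAC and 318 CPM in UAC + miR-330, led by Thy1, and none was at 0 in any library. Cd3e was at 3.27 CPM in the sham library, 14.7 CPM in UAC and 11.3 CPM in UAC + miR-330, while Cd3g was at 32.9, 30.7 and 26.6 CPM. NK-cell markers summed to 60.3, 119.6 and 109 CPM and neutrophil markers to 41391, 64031 and 45099 CPM. Dendritic-cell markers summed to 1314, 913 and 942 CPM, a fall carried by Cst3, at 908, 480 and 439 CPM. Of 8 compared in UAC against sham, Flt3, Siglech and Ccr9 were higher and 0 lower, with a median log2 ratio of 0.33, and of 9 in UAC + miR-330 against sham the same 3 were higher and Cst3 lower, with a median of 0.79. Skeletal markers summed to 13176, 6014 and 5959 CPM. The part of these cells in the B-cell levels was not tested. Whether those levels differed through the joint, the dissection or the 1 pool of animals cannot be told apart.

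**Figure D3:**
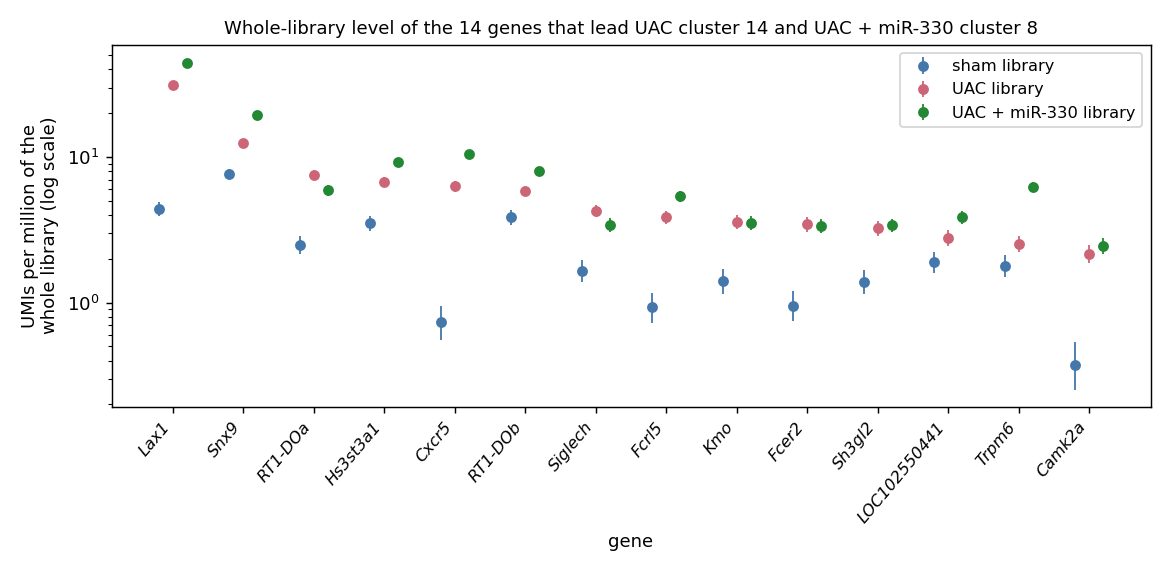
Points give the level over the whole library in CPM (log axis) of the 14 genes that were at least 4-fold above every other cluster in both UAC cluster 14 and UAC + miR-330 cluster 8, with exact Poisson 95% intervals. In sham the levels run from 0.373 CPM for Camk2a to 7.66 CPM for Snx9, and the choice of the genes through the UAC libraries favours lower levels in sham.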

How the data were processed

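Each of the 3 libraries pooled condyle cartilage and subchondral bone of 1 group. The submitters' processing notes list Cell Ranger 7.0, STAR, Seurat 4.0.1 and the builds GRCh38 and mm10, neither of them rat, and the build used for these tables was not given in the sources used here. The deposited tables hold, for each gene and graph-based cluster, a mean count (a signal scaled by the authors across cells), a log2 fold change and an adjusted p-value against the other clusters, and the last 2 were not used. UMIs were recovered as the mean divided by the smallest positive mean of the cluster and scaled to CPM. Entries of the same symbol were summed. Cell barcodes, and so cell numbers and doublets, were not analysed here. Cd79b replaced Cd79a, which the tables do not list by that symbol, as the B-lineage gate, a choice made after seeing the data.

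Members and lists were chosen with earlier results of these data known. Named genes were the 4 markers, up to 3 members of each list by UMIs and by change, the 10 largest changes each way, and up to 20 genes leading all 3 clusters. Other genes were named after their values were seen. Some genes that this rule names are not reported here. With 1 library per condition no test was made. Sequences came from RefSeq. Calculations used Python 3.11.15, numpy 2.4.6, pandas 2.3.3 and scipy 1.17.1, and were tested on simulated data.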

Additional observations from a re-analysis of the deposited data

How the results depend on the processing

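Among genes, 208 log2 ratios were recomputed under 4 settings, and of the 832 values 819 kept their side of the threshold, 7 lost the call and 6 gained it. The sign changed in 23 values, none of them called, with log2 ratios of at most 0.23 in size as reported. Deposited mean counts, which shift all log2 ratios by 0.20 in UAC against sham and by 0.24 in UAC + miR-330 against UAC, gave 10 of these changes, among them Siglech at −0.99. In UAC + miR-330 against UAC they gave 443 higher and 52 lower, a minimum of 10 UMIs gave 173 lower and no minimum 182 lower. At 1.5-fold, UAC against sham gave 1266 higher and 1460 lower, and UAC + miR-330 against UAC 671 and 362. Choosing clusters by Cr2 gave 1228 lower in UAC against sham. Choosing them by the sum of the 4 markers gave 48 higher and 74 lower, and 68 lower in UAC + miR-330 against UAC. Summing both clusters, chosen after seeing the data, gave 291 higher and 67 lower in UAC against sham.

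The share of the cluster in sham, UAC and UAC + miR-330 was 8.01%, 2.40% and 3.05% without ribosomal protein, mitochondrial, immunoglobulin and haemoglobin genes, and 15.3%, 5.35% and 6.51% of the B-lineage clusters. By Cr2 it was 4.88% in sham, by the sum of the 4 markers 7.29% in UAC and 7.53% in UAC + miR-330, and with both clusters 9.80% and 10.7%. Where values moved, the cause was not tested. No paired analysis was possible because each condition has 1 library. Depth limits genes with few UMIs, such as Fcer2 with 55 in sham cluster 1.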
